A study of Glycine max with 18 samples.

Results

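The transcripts described here belong to 4 of the 45955 genes measured in germinating soybean seeds, namely 3 annotated as late embryogenesis abundant (LEA) proteins, gene35300, gene37327 and gene27264, and 1 annotated as an embryonic protein, gene27626. The study singled them out, under these gene numbers, from genes that differed between its lines and had a high FPKM (mapped fragments scaled by transcript length and library size). The lines are low phytic acid (LPA) soybean mutants with the same lesion in the MIPS1 gene, TW-1-M, which arose naturally within TW-1 and is labelled with the higher field emergence, and TW-1, an induced mutant of the variety Taiwan 75 obtained with gamma rays and labelled with a very low one. Seeds germinated in the dark were sampled at the imbibed stage (stage 1), during the reactivation of metabolism (stage 2, given in the labels as 12 h after imbibition and in the study's text as another time) and at a root of 1 mm (stage 3). Each line and stage had 3 libraries, which gave the groups TW-1-M-1, TW-1-M-2 and TW-1-M-3 and the groups TW-1-1, TW-1-2 and TW-1-3, 18 libraries in all. Replicates are not described as separate cultures or plants, so p-values measure only the spread between these libraries.

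LEA proteins are very hydrophilic proteins that accumulate in the embryo as the seed matures and dries, and they are known for protecting membranes and other proteins when water is lost. Abscisic acid acting through seed transcription factors induces their genes. The mRNAs are stored in the dry seed and are normally degraded as germination proceeds and tolerance to drying is given up. Because whole seeds were extracted, fewer cells that hold a transcript and less of it per cell cannot be told apart.

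The 4 genes were chosen by their FPKM in TW-1-M against TW-1, and for gene35300, gene37327 and gene27264 this was in the libraries of stage 2 and for gene27626 in those of stage 3, where gene35300 also stood among the genes the study listed for their difference. Values of TW-1-M against TW-1 are therefore given below without a test, as are those of steps that involve stage 2. A high level was part of the choice, and 1441 of the 27150 genes tested exceeded a mean of 100 FPKM in TW-1-2. It did not set the 4 apart from their kind, since all 23 other LEA and seed maturation genes of the table also exceeded it there. Those 23 came from the study's lists of genes that differ between the lines. The change over the whole span, stage 3 against stage 1 within a line, is another contrast and was tested, although libraries that served the choice enter it. For gene27626 and gene35300 the p-values are therefore not independent of the choice. Picking genes low in TW-1-M-3 and high in TW-1-3 favours a deeper loss in TW-1-M and a shallower one in TW-1.

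The labelled tissue was checked against transcripts of seeds. In imbibed seeds the oleosin gene P91, which encodes a coat protein of oil bodies, averaged 1958 FPKM in TW-1-M and 2087 FPKM in TW-1, and of the 7 oleosin and 4 storage protein genes all were in the table and tested. The seed coat genes ANR1 and ANR2, which encode anthocyanidin reductases, were at or near 0, with a summed level of at most 0.06 FPKM in any library. The 4 genes of green tissue, CAB3, RBCS1, RBCS2 and LHCB1-7, summed to between 355.3 and 709.1 FPKM in TW-1-M-3, against 26.0 to 75.2 FPKM in TW-1-M-1, and to between 67.7 and 1011 FPKM in TW-1-3, against 42.4 to 213.9 FPKM in TW-1-1. In TW-1-M 3 of the 3 that were tested passed as higher at stage 3, where 5721 of the 27150 genes tested did. In TW-1 it was 0 of 3 by the adjusted limma p, where 72 of the 27150 did, and 1 of 3 by the unadjusted one. In TW-1-M these 3 thus moved in the direction opposite to the 4 genes described here, in TW-1 the ranges overlapped, and their part in the results was not tested. The library TW-1-3 replicate 1 stood apart. Replicates of TW-1-3 correlated across genes with r between 0.762 and 0.972, and 41.4% of genes tested differed by more than 1 on the log2 scale between this library and the mean of the other two. Fold changes and means of the 4 genes that rest on this library are given with it and without it. Ranks, coefficients of variation, correlations, non-overlap of ranges and values relative to the median of all genes include it unless stated. Summed FPKM lay between 683231 and 1296622 per library, and 30656 to 34820 genes were above 0. The table holds no read counts, so the depth behind single values is unknown.

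Among the 3 LEA genes, gene35300 (XM_003540472.3, symbol LOC100779390) was the most abundant in imbibed seeds, and its annotation includes the response to water. In TW-1-M its FPKM was 3267, 3216 and 2142 at stage 1, 382.6, 328.4 and 187.6 at stage 2, and 12.9, 25.0 and 5.62 at stage 3. In TW-1 it was 5045, 2234 and 4008 at stage 1, 2570, 2363 and 1353 at stage 2, and 1287, 208.8 and 72.8 at stage 3. The TW-1-M libraries of each later stage lay wholly below those of the stage before, whereas in TW-1 stages 1 and 2 overlapped and the highest stage 3 library came close to the lowest of stage 2. Among all genes of the table its mean ranked 7298 in TW-1-M and 284 in TW-1 at stage 3, against 25 in both lines at stage 1.

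The loss of gene35300 in TW-1-M was among the deepest of the genes tested, a rank that genes of low stage 1 level could not reach. At stage 3 its mean was 0.505% of that at stage 1, a 198-fold lower level, and only 0.0110% of genes tested had a lower log2 fold change. On the scale of log2(FPKM + 1), on which all following fold changes and SE are given, it fell by 7.72 (SE 0.484, limma adjusted p = 0.000273). In TW-1 13.9% of the stage 1 mean was left, and the log2 fold change of −3.72 (SE 1.013) did not pass (limma unadjusted p = 0.00820, adjusted p = 0.0919). The TW-1-3 replicate 1 library alone held 9.14 times the mean of the other two. Without it the log2 fold change in TW-1 was −4.84 (SE 0.551, limma adjusted p = 0.000616) and 3.74% of the stage 1 level was left. Without TW-1-3 replicate 3 it was −2.78 (limma adjusted p = 0.252).

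The second LEA gene with the water response annotation, gene37327 (XM_003542796.3, LOC100787615), was the least abundant of the 4 in 18 of 18 libraries. In TW-1-M its FPKM was 423.3, 709.4 and 333.2 at stage 1, 50.9, 56.3 and 36.4 at stage 2, and 2.85, 4.93 and 0.53 at stage 3. In TW-1 it was 1225, 347.7 and 971.2 at stage 1, 802.6, 382.6 and 374.7 at stage 2, and 62.1, 28.8 and 7.31 at stage 3. The highest library of TW-1-M-3 was thus below the lowest of TW-1-3. In TW-1-M it fell by 7.15 (SE 0.516, limma adjusted p = 0.000362), and 0.567% of the stage 1 mean was left. In TW-1 the log2 fold change was −4.90 (SE 0.818), the lowest of the 4 genes in that line, and with a limma adjusted p of 0.0512 it just missed the threshold. Only 0.0295% of genes tested had a lower one. TW-1-3 replicate 1 held 3.44 times the mean of the other two, and without it the value was −5.57 (SE 0.683, limma adjusted p = 0.000781). Without TW-1-3 replicate 3 it was −4.11 (limma adjusted p = 0.189).

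The third LEA gene, gene27264 (XM_003536862.3, LOC100809281), is named after D-34, an LEA protein first described in cotton embryos. In TW-1-M its FPKM was 2285, 1250 and 1261 at stage 1, 275.3, 248.1 and 303.4 at stage 2, and 19.8, 57.4 and 2.90 at stage 3. In TW-1 it was 2587, 1547 and 3725 at stage 1, 1687, 870.7 and 772.8 at stage 2, and 624.3, 74.0 and 93.9 at stage 3. Replicates were closest in TW-1-M-2, with a coefficient of variation of 10.0%, and widest at stage 3, where it was 105% in TW-1-M and 118% in TW-1. The gene fell by 6.51 in TW-1-M (SE 0.883, limma adjusted p = 0.00179), with 1.67% of the stage 1 mean left. Its log2 fold change was −7.41 without TW-1-M-3 replicate 2 and −5.46 without TW-1-M-3 replicate 3, and it passed in both cases (limma adjusted p = 0.00192 and 0.00350). In TW-1 the log2 fold change was −3.90 (SE 0.849, limma adjusted p = 0.0685) with 10.1% left. TW-1-3 replicate 1 held 7.44 times the mean of the other two. Without it the change was −4.87 (SE 0.419, limma adjusted p = 0.000288), and 3.20% of the stage 1 mean was left.

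The embryonic protein gene, gene27626 (XM_003535208.2, LOC100786618), is named after DC-8, an LEA protein of carrot embryos. In TW-1-M its FPKM was 970.2, 1950 and 1567 at stage 1, 224.0, 181.6 and 326.0 at stage 2, and 37.7, 48.6 and 33.1 at stage 3. In TW-1 it was 3631, 2084 and 4858 at stage 1, 2741, 1300 and 2193 at stage 2, and 316.1, 242.6 and 155.4 at stage 3. It was the steadiest of the 4 at stage 3, and TW-1-3 replicate 1 held 1.59 times the mean of the other two. In TW-1-M it fell by 5.16 (SE 0.315, limma adjusted p = 0.000273), the smallest loss of the 4 in that line, with 2.66% of the stage 1 mean left. It also fell in TW-1, by 3.86 (SE 0.482, limma adjusted p = 0.0350), with 6.75% left. Without TW-1-3 replicate 1 its log2 fold change was −4.09 (SE 0.451, limma adjusted p = 0.000552), and 5.65% of the stage 1 mean was left.

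**Figure D1:**
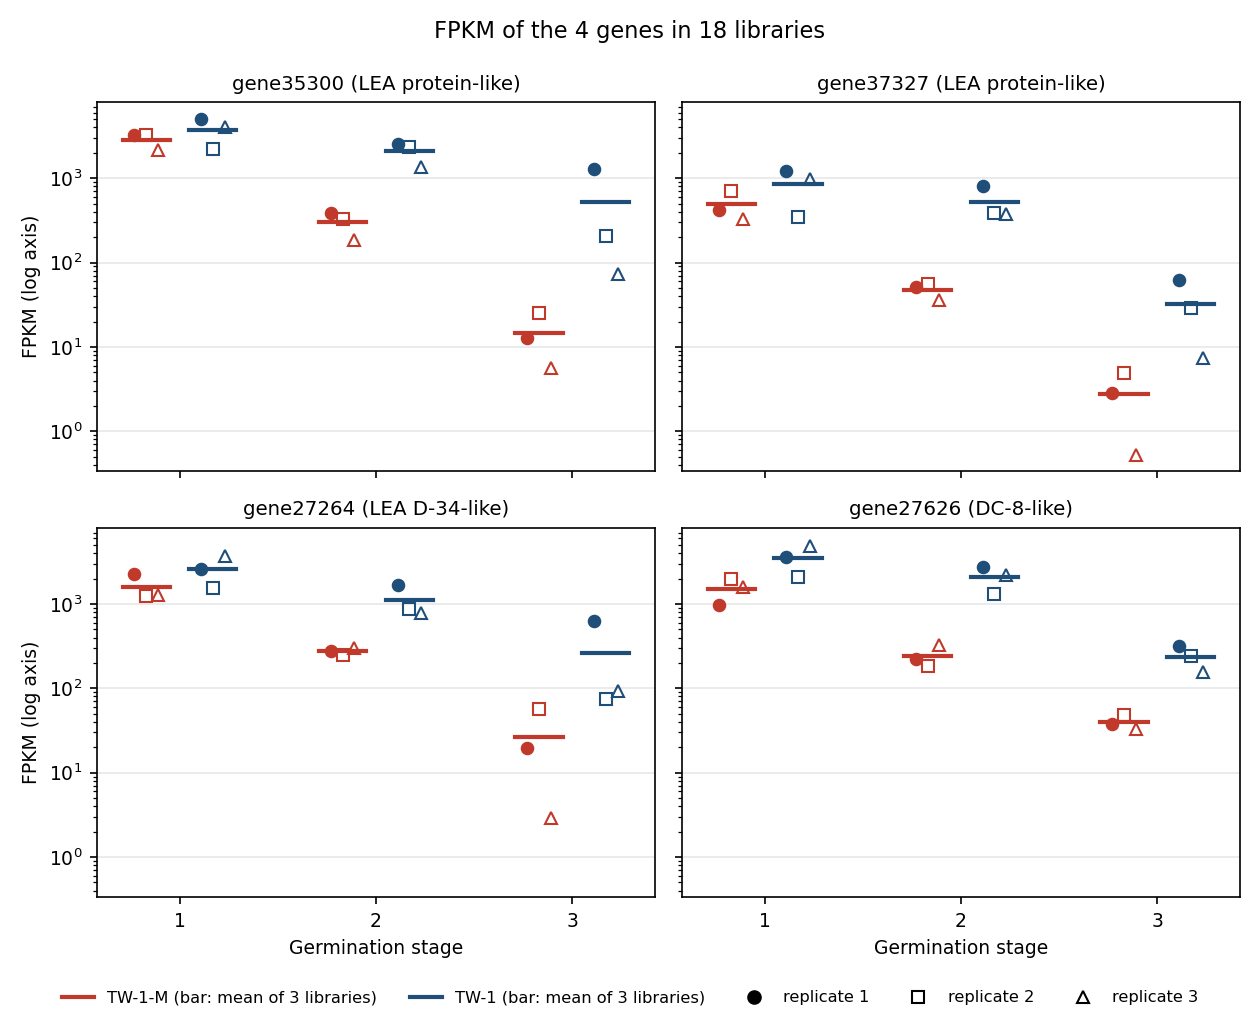
FPKM (log axis) of the 4 genes at the 3 germination stages in TW-1-M (red, left) and TW-1 (blue, right), with a symbol for each library by replicate number and a bar at the mean of 3 libraries. At stage 2 and stage 3 every TW-1-M library lies below every TW-1 library of the stage, and in TW-1-3 the library of replicate 1 (filled circle) lies above the other two for all 4 genes.

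Taking the 4 genes together, all 4 passed as lower at stage 3 than at stage 1 in TW-1-M (limma adjusted p below 0.05 and a change of more than 1 on the log2 scale), where 16.4% of genes tested did. In TW-1 only gene27626 passed, where 0.726% of genes tested did. With the unadjusted limma p at the same threshold all 4 passed in TW-1 too, where 10.6% of genes tested did. Leaving out TW-1-3 replicate 1 gave 4 of 4 by the adjusted p, beside 18.7% of genes tested, and leaving out any other library of the comparison gave 0 of 4, with 4 of 4 by the unadjusted p. The number of calls in TW-1 therefore changed with each library left out. A single fit of all 18 libraries, TW-1-3 replicate 1 included, gave 4 of 4. Under that fit 3032 of the 27150 genes tested were called lower, against 197 in the main fit. The values themselves did not overlap. In each line every stage 3 library was below every stage 1 library for all 4 genes, which held for 30.5% of genes tested in TW-1-M and 17.3% in TW-1.

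**Figure D2:**
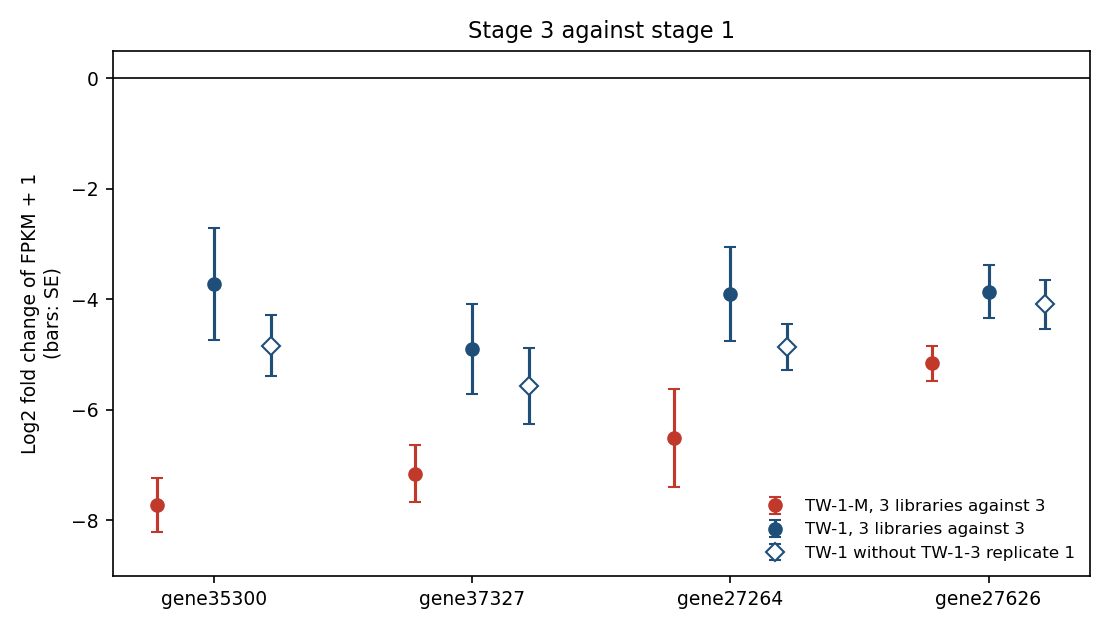
Log2 fold change of FPKM + 1 at stage 3 against stage 1 for the 4 genes (points) with its SE (bars) in TW-1-M (red), in TW-1 (blue, filled) and in TW-1 without TW-1-3 replicate 1 (blue, open). Values run between −7.72 and −5.16 in TW-1-M and between −4.90 and −3.72 in TW-1.

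The 4 genes stood at the low end of all genes tested. On this scale a gene can fall no further than its stage 1 level allows. The members, chosen for a high FPKM, had stage 1 means that ranked between 25 and 253 in the table. Genes of low stage 1 level could not reach such falls, so the shares below partly reflect the high starting level. The median log2 fold change of the 27150 genes was 0.11 in TW-1-M and 0.11 in TW-1, and the shares of genes with a lower value than a member were at most 0.306% in TW-1-M and 0.291% in TW-1. Rescaling every library to the same summed FPKM moved the median of all genes to 0.43 in TW-1-M and 0.20 in TW-1. Relative to that median the members lay between −7.77 and −5.18 in TW-1-M and between −5.00 and −3.81 in TW-1. Under that scaling calls over all genes were lower in 26.2% of cases in TW-1-M, against 43.7% as deposited, and in TW-1 in 75.6%, against 73.2%.

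**Figure D3:**
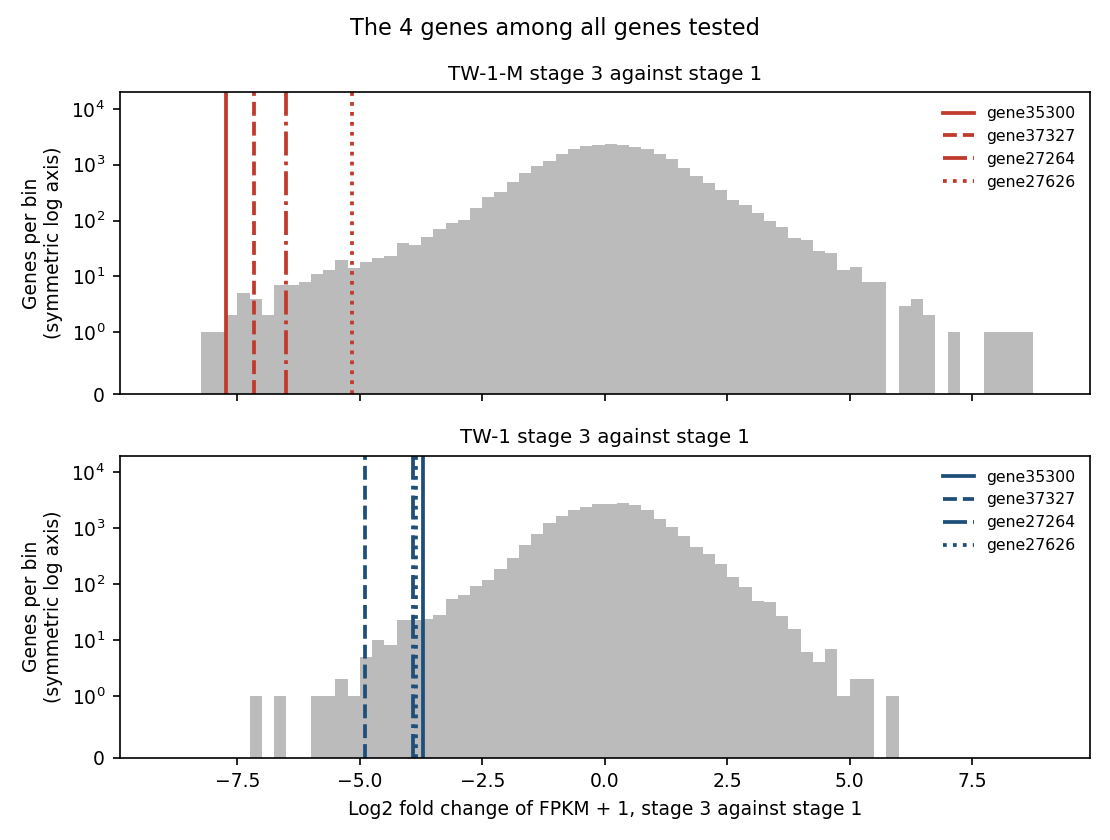
Number of genes (symmetric log axis) by log2 fold change of FPKM + 1, stage 3 against stage 1, over the 27150 genes tested in TW-1-M (top) and TW-1 (bottom), with the 4 genes as vertical lines. The lines lie in the left tail of both distributions, and farther left in TW-1-M. Genes of low stage 1 level cannot lie that far left on this scale.

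The span was also divided into an early and a late step. These steps share libraries with the whole span, and for the 4 genes they are a description. In TW-1-M all 4 genes had stage 2 libraries wholly below those of stage 1, which held for 23% of genes tested, and between 9.80% (gene37327) and 17.2% (gene27264) of the stage 1 mean was left. In TW-1 this held for 0 of 4, beside 10.2% of genes tested, the ranges of stages 2 and 1 overlapped, and between 42.4% (gene27264) and 61.3% (gene37327) was left. All stage 3 libraries were then below all of stage 2 for the 4 genes in both lines, which held for 15.5% of genes tested in TW-1-M and 11.2% in TW-1.

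By size, the early step in TW-1-M was a log2 fold change of −3.30 (SE 0.352) for gene35300, −3.27 (SE 0.324) for gene37327, −2.48 (SE 0.308) for gene27264 and −2.60 (SE 0.351) for gene27626. In TW-1 the same step lay between −1.24 (gene27264, SE 0.466) and −0.61 (gene37327, SE 0.541). The late step, stage 3 against stage 2, was between −4.43 (gene35300) and −2.56 (gene27626) in TW-1-M and between −4.29 (gene37327) and −2.67 (gene27264) in TW-1. Leaving out TW-1-3 replicate 1 gave a late step in TW-1 of −4.02 for gene35300, against −2.90 with it, −4.95 for gene37327, −3.63 for gene27264 and −3.35 for gene27626. Leaving out TW-1-3 replicate 3 gave −1.96 for gene35300 and −3.49 for gene37327. In TW-1-M the late step of gene27264 was −4.94 without TW-1-M-3 replicate 2 and −2.98 without TW-1-M-3 replicate 3, against −4.04 with both. With all libraries the early step was smaller than the late one for every gene and line, except for gene27626 in TW-1-M, whose steps were nearly equal.

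TW-1-M at stage 2 can be set beside TW-1 at stage 3. TW-1-M-2 averaged 299.5 FPKM for gene35300, 47.9 for gene37327, 275.6 for gene27264 and 243.9 for gene27626. TW-1-3 averaged 522.9 FPKM for gene35300, 32.7 for gene37327, 264.1 for gene27264 and 238.0 for gene27626, and without replicate 1 the means were 140.8, 18.0, 84.0 and 199.0 FPKM. The order of the groups thus turned for gene35300, whose mean was lower in TW-1-M-2 than in TW-1-3 with that library and higher without it. For 0 of the 4 genes was TW-1-M-2 wholly below TW-1-3 (6.15% of genes tested were), and the ranges overlapped in each case. Without TW-1-3 replicate 1 every TW-1-M-2 library was above TW-1-3 for gene37327 and gene27264, and the ranges still overlapped for gene35300 and gene27626. How many of all genes tested were above in this way was not counted, so this only describes the 4 genes. Since the hour of stage 2 is not settled, these values compare stages and not times.

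The contrast of the lines at one stage, which chose the genes, is described only. At stage 1 gene27626 alone was lower in every TW-1-M library than in every TW-1 library, with means of 1496 and 3524 FPKM, a pattern that 13.2% of genes tested shared. For gene35300, gene37327 and gene27264 the TW-1-M and TW-1 ranges of imbibed seeds overlapped. At stage 2 all 4 genes were wholly lower in TW-1-M (21.5% of genes tested were), with log2 fold changes of −2.81 (SE 0.392) for gene35300, −3.34 (SE 0.353) for gene37327, −1.92 (SE 0.348) for gene27264 and −3.06 (SE 0.377) for gene27626. At stage 3 all 4 were again wholly lower in TW-1-M (11.4% of genes tested were), with log2 fold changes of −4.34 (SE 1.06) for gene35300, −2.93 (SE 0.824) for gene37327, −3.29 (SE 1.18) for gene27264 and −2.51 (SE 0.364) for gene27626. With TW-1-3 replicate 1 left out these were −3.22, −2.27, −2.33 and −2.28 in the same order of genes. Without TW-1-3 replicate 3 the value of gene35300 was −5.28 and that of gene37327 −3.73. For gene27264 it was −4.19 without TW-1-M-3 replicate 2 and −2.24 without TW-1-M-3 replicate 3.

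The change from stage 1 to stage 3 in TW-1-M minus that in TW-1 was −4.01 (SE 1.08) for gene35300, −2.61 (SE 1.19) for gene27264, −2.25 (SE 0.950) for gene37327 and −1.30 (SE 0.562) for gene27626. When TW-1-3 replicate 1 was left out these were −2.88 for gene35300, −1.65 for gene27264, −1.58 for gene37327 and −1.07 for gene27626. Leaving out TW-1-3 replicate 3 gave −4.94 for gene35300 and −3.05 for gene37327. For gene27264 leaving out TW-1-M-3 replicate 2 gave −3.51 and leaving out TW-1-M-3 replicate 3 gave −1.56. Because this difference contains the contrast that chose the genes, no test is given for them. Over all genes 17 of 27150 passed limma's test of it by the adjusted p and 2393 by the unadjusted p.

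The 4 transcripts moved together over the 18 libraries, which share lines, stages and, for each library, its depth. Pearson's r of log2(FPKM + 1) lay between 0.929 (gene27264 with gene27626) and 0.978 (gene35300 with gene37327). With the mean of each group of 3 libraries taken out it lay between 0.732 and 0.893 among the 3 LEA genes and between 0.434 and 0.664 for gene27626 with each of them. Per length, gene35300 was the most abundant of the 4 in 9 libraries, gene27626 in 8 and gene27264 in 1. The highest member thus changed from library to library, while gene37327 always came last. Summed, the 4 genes held between 0.00594% and 0.0185% of a library's FPKM in TW-1-M-3, against 0.577% to 0.719% in TW-1-M-1. The share in TW-1 was between 0.0415% and 0.177% in TW-1-3, the highest in replicate 1, against 0.620% to 1.12% in TW-1-1.

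The genes with the most similar course over the 18 libraries were found by Pearson's r of log2(FPKM + 1). Of the 20 places given by the 5 highest Pearson's r for each member, 12 were taken by genes of the LEA and seed maturation lists. These lists, described below, hold 23 and 15 of the 27150 genes tested. The members and the first list came from the study's genes that differ between the lines, so a shared course is partly built in. PM13, annotated as a calcium-binding EF hand protein, was counted for both gene35300 and gene37327. For gene35300 the nearest was LOC102661014 (r = 0.995), followed by PM13 (0.990), DEHYDRIN (0.989), PM28 (0.987) and PM30 (0.987). For gene37327 they were LOC100306714 (0.989), gene33721, annotated as seed maturation protein PM38 (0.985), an entry without a symbol, PM13 (0.982) and TENA_E, annotated as PM36 (0.981). For gene27264 the nearest was LOC100798883 (0.988), annotated as a galactosyltransferase that acts between galactinol and sucrose, the reaction that makes raffinose. The Lea protein gene LOC732637 (0.985) and MAT1 (0.984), a dehydrin, were also among its 5. For gene27626 they were MP2 (0.992), LOC100777331 (0.990), PM39 (0.987), PM32 (0.987) and LOC100785774 (0.986). The other members ranked lower than these 5, with gene37327 in place 18 for gene35300 and gene27264 in place 251 for gene27626.

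Other genes of seed maturation were set beside the 4. The annotations of the study's additional files give 25 further LEA and seed maturation genes, of which 23 were in the table and tested. These came from the study's lists of genes that differ between the lines, so they are not independent of that difference. In TW-1-M 22 of the 23 passed as lower at stage 3 than at stage 1, and their median log2 fold change was −5.51. In TW-1 6 of 23 did, and the median was −3.39. Without TW-1-3 replicate 1 it was 21 of 23 in TW-1, with a median of −3.81. The 4 members lay on both sides of the list's median in TW-1-M, gene27626 above it and the LEA genes below it.

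Among the most abundant of the list, the seed maturation gene PM9 averaged 12451, 2113 and 279.2 FPKM at stages 1, 2 and 3 in TW-1-M and 23734, 15262 and 4568 FPKM in TW-1. It fell by 5.44 in TW-1-M (limma adjusted p = 0.000263), and in TW-1 its log2 fold change was −2.64 (limma adjusted p = 0.0982). PM30 fell by 5.51 in TW-1-M (limma adjusted p = 0.000263), and in TW-1 its value was −2.68 (limma adjusted p = 0.107). LEA5, a desiccation protective protein, had 26040, 9778 and 4517 FPKM in the replicates of TW-1-3, against 13142, 12984 and 17562 FPKM in TW-1-1. The first of these is the library that stands apart, and the log2 fold change of −0.46 did not pass (limma adjusted p = 0.676). In TW-1-M LEA5 fell by 3.96 (limma adjusted p = 0.000976). The 1 gene of the list that did not pass in TW-1-M was LOC100137078, annotated as the dehydrin SLTI629, with 1209 FPKM at stage 3, against 2249 FPKM at stage 1.

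A second list was taken by name from symbols and synonyms of the reference gene table and held 15 tested genes. Some of them also stand in the study's lists of genes that differ between the lines. In TW-1-M 12 passed as lower and 2 as higher, with a median of −5.32, and in TW-1 2 passed as lower and 0 as higher, with a median of −3.14, beside 9 and 1 by the unadjusted limma p. Without TW-1-3 replicate 1, 10 passed as lower and 2 as higher in TW-1. Of all 27150 genes tested, 4442 passed as lower and 5721 as higher in TW-1-M, and 197 and 72 in TW-1. Without TW-1-3 replicate 1 these were 5066 and 6559 in TW-1. SLE2, an LEA gene of the Em type, fell by 7.34 in TW-1-M (limma adjusted p = 0.000263) and its value in TW-1 was −4.06 (limma adjusted p = 0.0675).

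Genes of the seed's stores were compared too. The 4 storage protein genes all passed in TW-1-M, with a median of −4.62, and 0 passed in TW-1, with a median of −1.92. By the unadjusted limma p 3 of the 4 were lower in TW-1, among them CG-1 of beta-conglycinin (adjusted p = 0.0625). All 7 oleosin genes passed in TW-1-M, with a median of −4.74, and 0 of 7 in TW-1, with a median of −1.82 and 6 of 7 by the unadjusted limma p. Without TW-1-3 replicate 1 it was 2 of 4 storage protein and 6 of 7 oleosin genes in TW-1. Each of the 4 members had a lower log2 fold change than the median of either list in both lines. These medians include genes at low levels, such as GY3 with a mean of 5.66 FPKM in TW-1-M-1 and 0.143 FPKM in TW-1-1. In TW-1-M LOC100789191 (−6.17), LOC100775426 (−5.31), LOC100779237 (−5.30) and CG-1 (−5.19) fell more than gene27626 (−5.16). The other genes of both lists fell less than gene27626.

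**Figure D4:**
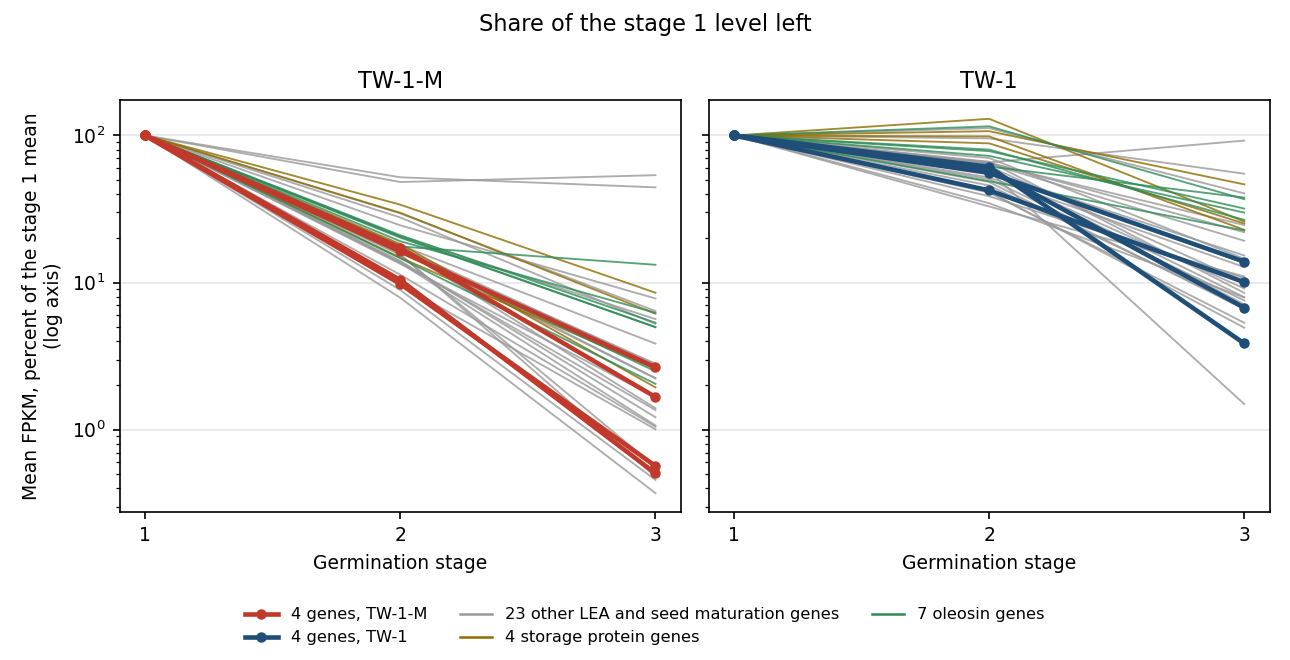
Mean FPKM of 3 libraries as percent of the stage 1 mean (log axis) by germination stage in TW-1-M (left) and TW-1 (right), for the 4 genes (thick lines with points) and for 23 other LEA and seed maturation, 4 storage protein and 7 oleosin genes (thin lines). At stage 2 the 4 genes are at 9.80% to 17.2% in TW-1-M and at 42.4% to 61.3% in TW-1.

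Of the transcription factors that control seed maturation, ABI5, which acts in the response to abscisic acid and activates LEA genes in Arabidopsis, fell by 2.65 in TW-1-M (SE 0.623, limma adjusted p = 0.0106). Its FPKM was 3.23, 2.62 and 6 in TW-1-M-3, against 9.40, 48.2 and 51.2 in TW-1-M-1. The values in TW-1 were 9.19, 17.0 and 11.7 in TW-1-3, against 41.5, 16.7 and 66.0 in TW-1-1, and the log2 fold change of −1.48 did not pass (limma adjusted p = 0.127). LEC1-B passed in neither line (limma adjusted p = 0.502 in TW-1-M and 0.2505 in TW-1). ABI3-1, ABI3-2 and LEC1-A were not analysed here, because no ID among the genes measured matched their reference entries.

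The genes next to the members on the reference assembly were at low levels where they could be found among the genes measured. The highest mean of one at stage 1 or stage 3 was 4.45 FPKM. LOC121172924 beside gene27264 and LOC100802023 beside gene27626 had no matched entry, so their levels are unknown. Of the 4 that were tested, 0 passed as lower by limma's adjusted p in either line. In TW-1-M 1 passed as higher, LOC102663296 beside gene27264 (log2 fold change 1.08, limma adjusted p = 0.0214), where 5721 of the 27150 genes tested did. By the unadjusted p 0 of the 4 were lower in TW-1-M and 1 in TW-1, LOC100790759 beside gene35300, with a mean of 0.183 FPKM in TW-1-3, against 1.42 FPKM in TW-1-1. In TW-1-M-1 the means of LOC102663296, LOC100788770 and LOC100790759 were 0.217, 0.447 and 0.317 FPKM. From such levels a fall of more than 1 on the log2(FPKM + 1) scale is not possible, so these could not pass as lower there. The same held for LOC102663296 in TW-1, with 0.14 FPKM in TW-1-1.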

How the data were processed

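RNA of 18 libraries of whole germinating seeds was used. The FPKM table deposited by the authors came from reads trimmed in Trimmomatic, aligned by TopHat and quantified by cuffquant, and cuffnorm had scaled the libraries to each other. Versions are not given in the sources used here. Columns were matched to samples by name. The 4 gene numbers were paired with RefSeq IDs through the study's additional files, whose fold changes were not used, and 36767 IDs of the table matched the RefSeq gene table (Glycine_max_v4.0). Its assembly differs from that of the reads, so no coordinates are given. Sequences were not used here, and the planned search for close relatives by protein alignment was not run.

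A gene was tested where 3 or more libraries reached an FPKM of 1 (27150 genes). The model, limma 3.58.1 under R 4.3.3, was fitted to log2(FPKM + 1), whose pseudocount of 1 understates the change of low genes (eBayes with a trend, two-sided, Benjamini-Hochberg adjustment over all genes tested), with the 6 libraries compared in the fit. A gene passed where the adjusted p was below 0.05 and the change exceeded 1 on the log2 scale in size. Beside the 4 genes, the rule named the 3 most abundant genes of each list, the 5 genes most correlated with each member and regulators by symbol, and not all are printed. LEA5, LOC100137078, LEA-1, LEA-2 and the genes of the closing section were picked after their values were seen, where that rule does not name them. The list from the reference table was added after the files were seen. Members and lists were chosen with earlier results of these data known. On simulated data for TW-1-M with 27150 genes, 98% of genes lowered by 6 and 89% of those lowered by 3 on the log2 scale were called, beside 9 unchanged ones. For TW-1 it was 96% and 60%, beside 4. The lowered genes were drawn from the more abundant ones, and the noise was independent between genes. A library that stands apart across many genes was thus not simulated, so these rates may not hold for the real TW-1 libraries. Figures used Python 3.11.15 and matplotlib 3.10.9. Alternatives were a pseudocount of 0.1, 2 other filters, 2 other scalings, a ratio of means, a block for the replicate number, a single fit of the 18 libraries, the unadjusted p, and each library left out.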

Additional observations from a re-analysis of the deposited data

How the results depend on the processing

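In TW-1-M, stage 3 against stage 1, the limma count was 4 of 4 under the alternatives run, except 3 of 3 with FPKM of at least 1 in every library, where gene37327 is not kept, and no log2 fold change of the 4 genes turned its direction in any comparison. In TW-1, where 1 of 4 passed, the count was 0 with no filter on low values, 2 with FPKM of at least 1 in every library, 2 with quantile normalization, 2 with equal summed FPKM, 4 with all 18 libraries in one fit and 4 by the unadjusted p. Leaving out 1 library gave 0 to 4, the 4 without TW-1-3 replicate 1, and 0 without each other library. The count of all genes called lower in TW-1, 197, was then 0 to 5066. It was 5 with no filter, 767 with FPKM of at least 1 in every library and 238 with quantile normalization. With equal summed FPKM it was 306, and with all 18 libraries in one fit 3032. In TW-1-M, where 4442 genes were called lower, it was 2929 with equal summed FPKM. The cause of these shifts was not tested. No depth is known, so values near 0 FPKM have no limit of detection.

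Deviations from the group mean were correlated between libraries of stage 3 and stage 1. With the same replicate number the correlations were −0.23, −0.04 and 0.18 in TW-1-M and 0.05, −0.47 and 0.28 in TW-1. Those with different numbers lay between −0.50 and 0.46. With 3 libraries per group these values cannot decide whether the numbers pair the libraries. With the replicate block 4 of 4 genes passed in TW-1-M and 0 of 4 in TW-1, where 4 of 4 had an unadjusted limma p below 0.05 and 1 gene of the whole table was called lower.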

Other observations

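Not all genes named for late embryogenesis were lost. LEA-1 had 110.0, 54.6 and 96.9 FPKM in TW-1-M-3, against 0.87, 3.00 and 21.0 FPKM in TW-1-M-1, and its log2 fold change was 3.95 (limma adjusted p = 0.00687). In TW-1 it had 0.70, 78.5 and 49.6 FPKM in TW-1-3, against 2.14, 0.80 and 4.25 FPKM in TW-1-1 (log2 fold change 2.62, limma adjusted p = 0.225). The lowest of these is TW-1-3 replicate 1, the library with the highest values of the 4 genes at that stage. LEA-2 had 34.4, 17.4 and 27.7 FPKM in TW-1-M-3, against 3.43, 6.23 and 15.6 FPKM in TW-1-M-1 (log2 fold change 1.71, limma adjusted p = 0.0215). In TW-1 LEA-2 had 9.33, 38.0 and 27.8 FPKM in TW-1-3, against 4.46, 3.73 and 12.9 FPKM in TW-1-1 (log2 fold change 1.67, limma adjusted p = 0.138).

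The chlorophyll-binding protein gene CAB3 was lowest in the TW-1-3 library where the 4 genes were highest, with 28.5 FPKM in replicate 1 and 884.6 and 541.0 FPKM in the other two. The glycinin gene GY3 had been listed by the study for a difference between the lines. It was the 1 gene of the 11 storage protein and oleosin genes with higher values in every TW-1-M library of imbibed seeds than in every TW-1 library. Its FPKM was 3.34, 3.60 and 10.0 in TW-1-M, against 0.11, 0.09 and 0.23 in TW-1. The levels in TW-1 were near 0, and the share of all genes tested with this pattern was not counted.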
